A study of Rattus norvegicus with 12 samples.

Results

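The genes described are 10 transcripts of the immediate early response, chosen by name from the count table: the zinc-finger factors Egr1, Egr2, Egr3 and Egr4, the orphan nuclear receptors Nr4a1, Nr4a2 and Nr4a3, the immediate early response proteins Ier2 and Ier3, and Srf, the serum response factor. All 10 were found among the 28727 named genes of the table, and 8 of them were among the 14669 genes with enough reads to test. Egr2 and Egr3 were below the filter on low counts. RNA came from INS-1 832/13 cells, a clonal, glucose-responsive rat insulinoma line, and 3 libraries were sequenced in each of 4 groups, 12 in all. The groups were cells transduced with a GFP adenovirus in 2 mM glucose (GFP 2 mM), the same in 11 mM glucose (GFP 11 mM), and cells transduced with an adenovirus for ChREBPβ in 2 mM (ChREBPβ 2 mM) or 11 mM glucose (ChREBPβ 11 mM). Every group thus carried an adenovirus, and by the study's methods the ChREBPβ was an mCherry-tagged mouse protein. RNA was taken after 48 h of culture in these glucose concentrations, as the study's results state. Its general methods give longer times for transduced cells, with serum added the day after the virus. ChREBPβ is the short, strongly active isoform of the carbohydrate response element binding protein, a glucose-responsive transcription factor encoded by Mlxipl.

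Immediate early genes are transcribed within minutes of a stimulus, without new protein synthesis. SRF sits on their promoters at CArG boxes together with ternary complex factors of the Elk family, which are switched on by ERK, and CREB binds cAMP response elements nearby. In β-cells, glucose and calcium entry are known to raise Egr1 and Nr4a1, and the response to a pulse fades within hours, long before the 48 h at which RNA was taken here. The EGR factors bind GC-rich sites, and several of them, Egr1 included, are held in check by the corepressors Nab1 and Nab2. NR4A receptors bind DNA without a known hormone and are set mainly by how much of them is made.

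Promoter sequences are printed for Egr1, Egr4 and Nr4a1, which were lower with ChREBPβ at both glucose concentrations. They are also printed for Srf and Ier2, in which no fall passed the test. These genes were picked by the changes given below, and Nr4a2, lower at 2 mM only, is not printed. Any link between promoter sequence and these changes was not tested. RefSeq promoter entries (build GRCr8) were matched for 7 of the 10 genes (Egr1, Egr2, Egr4, Nr4a1, Nr4a2, Ier2 and Srf). Of each 300-base window, from 250 bases before the annotated start to 50 after it, the 220 bases next to the start are printed, 5′ to 3′ on the gene's own strand. Capitals mark CArG boxes and the core of the cAMP response element, TGACG, on either strand (CGTCA when read on the other). The stretches are Egr1 at chr18:26736858-26737077, plus strand, Srf at chr9:21923856-21924075, plus strand, Egr4 at chr4:119607818-119608037, minus strand, Nr4a1 at chr7:134259918-134260137, plus strand, and Ier2 at chr19:40399153-40399372, plus strand.
Egr1: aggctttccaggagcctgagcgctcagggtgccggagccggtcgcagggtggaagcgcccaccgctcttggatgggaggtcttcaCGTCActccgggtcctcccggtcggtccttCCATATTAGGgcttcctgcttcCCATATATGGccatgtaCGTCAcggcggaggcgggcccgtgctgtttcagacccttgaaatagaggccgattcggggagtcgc
Srf: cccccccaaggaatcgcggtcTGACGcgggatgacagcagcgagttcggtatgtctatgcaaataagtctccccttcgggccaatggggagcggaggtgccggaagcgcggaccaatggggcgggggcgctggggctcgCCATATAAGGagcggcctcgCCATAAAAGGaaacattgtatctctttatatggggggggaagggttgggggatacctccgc
Egr4: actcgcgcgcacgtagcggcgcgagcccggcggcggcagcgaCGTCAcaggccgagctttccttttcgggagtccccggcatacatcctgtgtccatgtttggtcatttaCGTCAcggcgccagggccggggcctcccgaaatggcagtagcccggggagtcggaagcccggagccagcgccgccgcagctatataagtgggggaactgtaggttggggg
Nr4a1: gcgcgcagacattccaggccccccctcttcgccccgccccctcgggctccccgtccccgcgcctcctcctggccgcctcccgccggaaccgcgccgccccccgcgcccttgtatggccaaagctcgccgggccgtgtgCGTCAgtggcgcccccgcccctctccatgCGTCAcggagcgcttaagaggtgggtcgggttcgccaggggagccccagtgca
Ier2: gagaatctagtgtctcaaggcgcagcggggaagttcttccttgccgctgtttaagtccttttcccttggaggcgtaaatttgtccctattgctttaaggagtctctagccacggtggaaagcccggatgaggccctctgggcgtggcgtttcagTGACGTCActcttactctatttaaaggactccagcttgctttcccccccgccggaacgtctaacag

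A CArG box, a run of A and T bases between CC and GG that is the binding sequence of SRF, was present in 3 of the 7 windows. Egr1 held 2 of them, at -105 to -96 and at -83 to -74 from the start, and Srf itself held 2, at -81 to -72 and at -61 to -52. Egr2 held 1, at -83 to -74. Of all 33469 RefSeq promoter windows of the same length 1.64% had a CArG box and 0.0209% had 2 or more. TGACG, searched on both strands, was found in all 7 windows, against 21.2% of all windows. Nr4a1 had 4 matches, at -246 to -242, -226 to -222, -82 to -78 and -53 to -49, of which the first 2 lie outside the printed stretch. The palindrome TGACGTCA occurred in 1 of the 7 windows, that of Ier2 at -66 to -59, where it contains 2 overlapping matches to TGACG, and in 1.83% of all windows. The EGR motif GCGTGGGCG (0.544% of all windows), the NR4A monomer motif AAAGGTCA (1.43%) and the E-box CACGTG whose core is shared with the ChREBP response element (6.42%) were found in 0 of the 7. A match says only that these letters are present in the window.

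**Figure D1:**
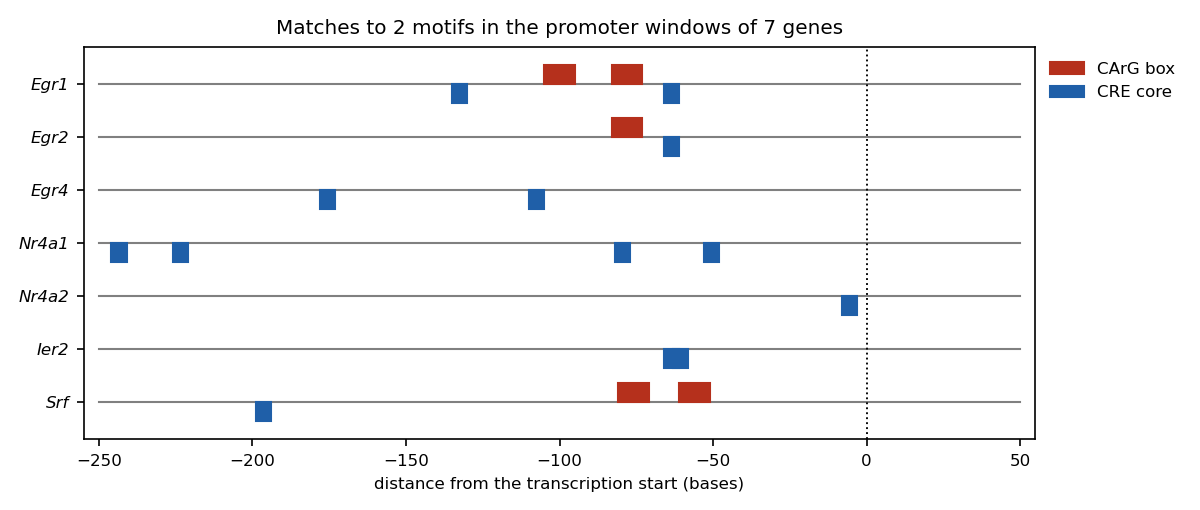
Positions of CArG boxes (red) and of the cAMP response element core TGACG on either strand (blue, marked CRE core) in the RefSeq promoter windows of 7 genes; the x axis is the distance from the annotated transcription start in bases, and each grey line is 1 gene. Egr1 and Srf each have 2 CArG boxes upstream of the start, and every gene has at least 1 CRE core.

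Total counts on named genes were 25754488 to 32938546 in GFP 2 mM, 36219167 to 46654823 in GFP 11 mM, 28595982 to 57726412 in ChREBPβ 2 mM and 57088794 to 60531215 in ChREBPβ 11 mM, so that the 4 smallest libraries were all in 2 mM glucose. Levels are TMM-scaled CPM, the read count of a gene relative to the effective size of its library, and they are compared between groups for 1 gene, not between genes, since no transcript lengths were used. Among β-cell markers Ins1 ranged from 3465 to 12660 CPM, while Ptprc and Prss1, which mark leukocytes and acinar cells, were at 0 in every library, Sst, Ppy, Col1a1, Krt19 and Cpa1 did not exceed 5 counts, and Cdh5 reached 11. Gcg (glucagon) was present at 429 to 1719 CPM. The vector was checked through targets of ChREBP: Txnip was 4.12 higher on the log2 scale in ChREBPβ 2 mM than in GFP 2 mM (SE 0.054, edgeR adjusted p = 2.12e-21) and Pklr 1.69 higher (SE 0.048, edgeR adjusted p = 1.52e-16), while the Mlxipl entry of the table was at -0.33 (SE 0.052, edgeR adjusted p = 2.03e-05), and rat reads of it were not told apart from reads of the mouse vector. At 11 mM Txnip was 0.93 and Pklr 1.08 higher with ChREBPβ than with GFP. Both also rose with glucose in GFP cells, by 3.74 and 0.70, so that they are not specific to the vector. The study describes the 3 libraries of a group as independent experiments, while the labels do not say which libraries were made together. The RNA was from whole cultures, in which fewer cells of a kind and less RNA per cell cannot be told apart.

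The set did not move as a block with ChREBPβ. Egr1, Egr4 and Nr4a1 were lower than with GFP at both glucose concentrations, Nr4a3 was more than 2-fold higher at both, and Nr4a2 was lower at 2 mM. Ier2 did not pass the test at either concentration, and Srf had an adjusted p under 0.05 with TMM scaling but a change under the minimum of 1.2-fold. A gene is called here when its adjusted p is under 0.05 over all tested genes and the fitted change is at least 1.2-fold. Between the viruses in 2 mM glucose, 5 of the 8 were called, 1 higher and 4 lower, with 44.1% of all tested genes called, 21.0% higher and 23.2% lower. At 11 mM 4 were called, 1 higher and 3 lower, against 33.4% of all tested genes, 14.3% higher and 19.1% lower. The median log2 fold change of the 8 genes was -0.38 at 2 mM and -0.10 at 11 mM, and that of all tested genes was -0.0168 and -0.0173. Scaling by library totals alone, without TMM factors, moved the median of all genes to -0.116 at 2 mM and -0.101 at 11 mM. The higher genes then made up 33.2% and 29.3% of all called genes, while TMM scaling gave 3075 higher and 3401 lower at 2 mM and 2102 higher and 2802 lower at 11 mM.

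**Figure D2:**
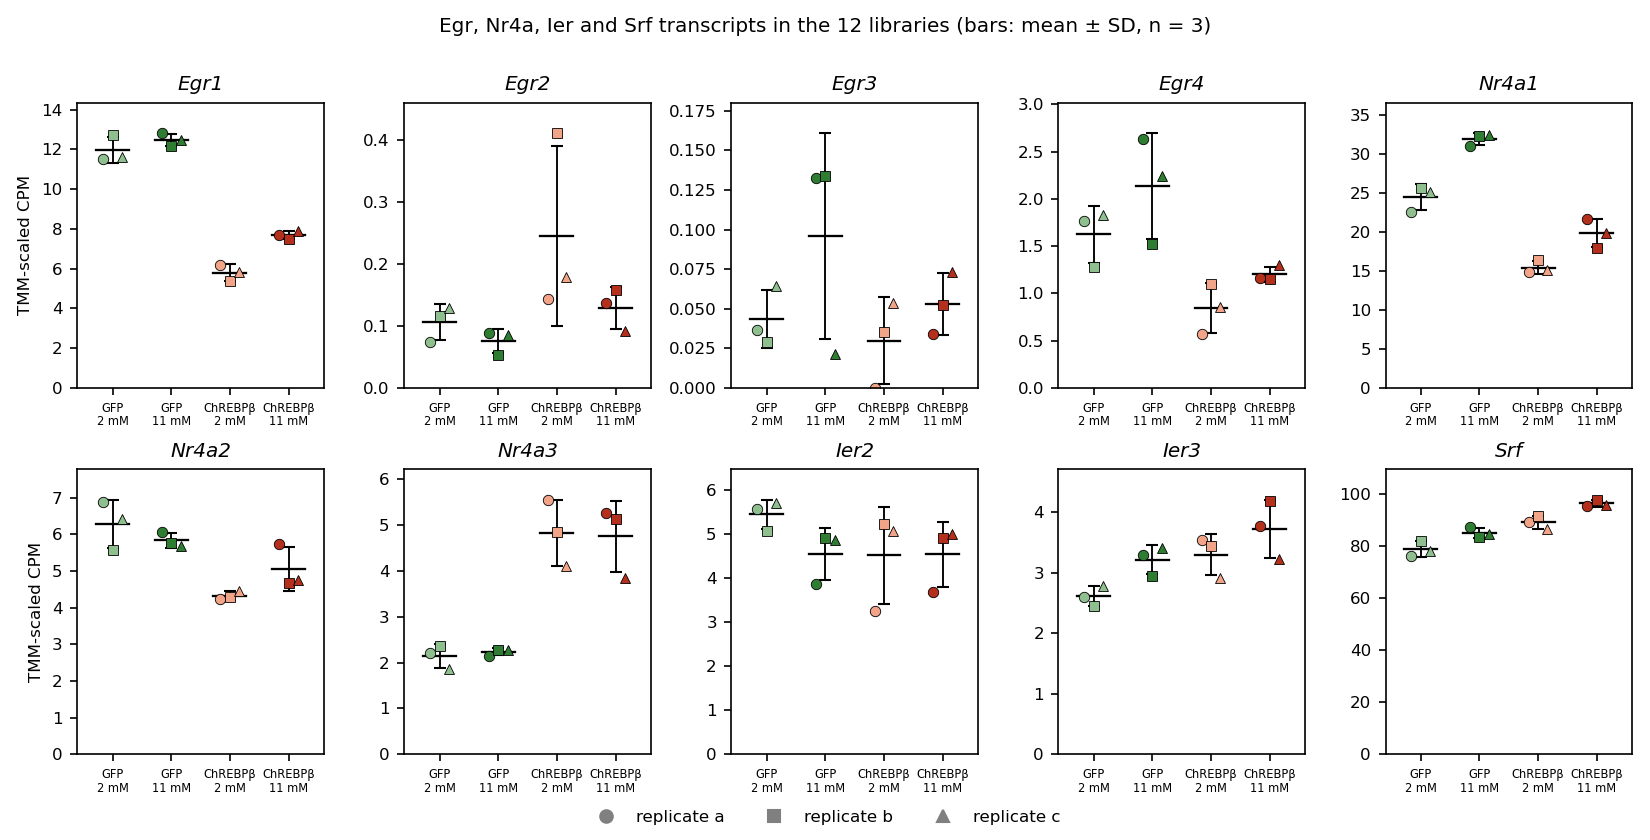
TMM-scaled CPM (y axis, linear, from 0) of the 10 genes in the 12 libraries, by group on the x axis; circles, squares and triangles are replicates a, b and c, horizontal bars are group means and error bars are SD (n = 3). All 6 ChREBPβ libraries of Egr1 and Nr4a1 sit below all 6 GFP libraries, those of Nr4a3 sit above them, and at each glucose concentration the groups of Ier2 overlap.

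Egr1, the best studied of the EGR activators, was at 11.5, 12.7 and 11.6 CPM in GFP 2 mM and at 12.8, 12.2 and 12.5 CPM in GFP 11 mM. With ChREBPβ its level was 6.19, 5.36 and 5.84 CPM at 2 mM and 7.69, 7.51 and 7.88 CPM at 11 mM. The ChREBPβ libraries were below every GFP library, and those at 11 mM were above every one at 2 mM. Egr1 fell by 1.06 on the log2 scale at 2 mM (SE 0.085, edgeR adjusted p = 1.98e-09), which is 2.08-fold lower. At 11 mM it fell by 0.70 (SE 0.078, edgeR adjusted p = 3.32e-07), 1.62-fold lower. The group means were 11.97 ± 0.668 CPM in GFP 2 mM, 12.5 ± 0.313 in GFP 11 mM, 5.80 ± 0.416 in ChREBPβ 2 mM and 7.69 ± 0.186 in ChREBPβ 11 mM (SD, n = 3). In the order of levels the GFP groups overlapped, and every other pair of neighbours was separated.

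Egr4, an EGR factor studied mostly in neurons and germ cells, had few reads, between 16 and 119 per library. Its level was 1.76, 1.28 and 1.83 CPM in GFP 2 mM and 2.63, 1.53 and 2.24 CPM in GFP 11 mM. In ChREBPβ 2 mM it was 0.573, 1.11 and 0.859 CPM, and in ChREBPβ 11 mM 1.16, 1.16 and 1.30 CPM. At each glucose concentration all 3 ChREBPβ libraries were below all 3 GFP libraries. The fall was 0.87 on the log2 scale at 2 mM (SE 0.26, edgeR adjusted p = 0.00754) and 0.83 at 11 mM (SE 0.23, edgeR adjusted p = 0.00496), with standard errors larger than those of the other tested genes. Over 22 alternative settings the 2 mM change ranged from -1.15 to -0.71 and the 11 mM change from -1.01 to -0.66.

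Egr2 and Egr3, which in other cells follow growth factor and antigen receptor signals, were near the limit of detection. Egr2 had 2, 4 and 4 counts in GFP 2 mM, 4, 2 and 4 in GFP 11 mM, 4, 23 and 10 in ChREBPβ 2 mM and 8, 9 and 5 in ChREBPβ 11 mM. Over a group this is 0.108 CPM in GFP 2 mM (95% exact Poisson interval 0.0517 to 0.198) and 0.264 CPM in ChREBPβ 2 mM (0.186 to 0.365), of which replicate b holds most of the counts. Egr3 had 1, 1 and 2 counts in GFP 2 mM, 6, 5 and 1 in GFP 11 mM, 0, 2 and 3 in ChREBPβ 2 mM and 2, 3 and 4 in ChREBPβ 11 mM. The library with 0 counts, ChREBPβ 2 mM replicate a, allows up to 0.107 CPM, the worth of 3 counts. Intervals and limits cover counting error only, since amplified reads are not independent molecules. In a fit with no filter edgeR called neither gene in any comparison, so that a change was not detectable at this depth, and the largest estimate was 1.69 for Egr2 in ChREBPβ 2 mM against GFP 11 mM (edgeR adjusted p = 0.0624).

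The 3 NR4A receptors did not move together. Nr4a1 (Nur77) was at 22.6, 25.7 and 25.2 CPM in GFP 2 mM and at 31.1, 32.3 and 32.4 CPM in GFP 11 mM. With ChREBPβ it was at 14.8, 16.4 and 15.1 CPM at 2 mM and at 21.6, 18.01 and 19.9 CPM at 11 mM. None of the 4 groups overlapped with another, and GFP 11 mM was the highest. Nr4a1 fell by 0.66 on the log2 scale at 2 mM (SE 0.074, edgeR adjusted p = 2.3e-07) and by 0.69 at 11 mM (SE 0.069, edgeR adjusted p = 7.08e-08), 1.58-fold and 1.61-fold lower.

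Nr4a2 (Nurr1), known best from dopamine neurons, was at 6.87, 5.57 and 6.41 CPM in GFP 2 mM and 6.06, 5.76 and 5.69 CPM in GFP 11 mM. In ChREBPβ 2 mM it was lower and tight, at 4.22, 4.28 and 4.46 CPM, and in ChREBPβ 11 mM it was at 5.75, 4.68 and 4.75 CPM. Replicate a of ChREBPβ 11 mM lay inside the range of GFP 11 mM, and the other two lay below it. Nr4a2 fell by 0.53 on the log2 scale at 2 mM (SE 0.12, edgeR adjusted p = 0.000614). At 11 mM the estimate was -0.20 (SE 0.11, edgeR adjusted p = 0.129, 95% interval -0.43 to 0.024), and without ChREBPβ 11 mM replicate a it was -0.31 and passed (edgeR adjusted p = 0.0372). It also passed there with library totals, at -0.29 (edgeR adjusted p = 0.0362). In the order of levels the GFP groups overlapped, both overlapped ChREBPβ 11 mM, and ChREBPβ 2 mM was below all others.

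Nr4a3 (Nor1) went the other way. It was at 2.20, 2.36 and 1.86 CPM in GFP 2 mM and 2.15, 2.28 and 2.28 CPM in GFP 11 mM, and at 5.55, 4.85 and 4.10 CPM in ChREBPβ 2 mM and 5.27, 5.14 and 3.86 CPM in ChREBPβ 11 mM. The lowest ChREBPβ library was above the highest GFP library, and the 2 glucose concentrations overlapped under each virus. Nr4a3 rose by 1.15 on the log2 scale at 2 mM (SE 0.16, edgeR adjusted p = 5.73e-06) and by 1.09 at 11 mM (SE 0.15, edgeR adjusted p = 6.63e-06), 2.23-fold and 2.13-fold higher. Replicate c was the lowest library of both ChREBPβ groups.

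Ier2, a nuclear protein of the first response to growth factors, was at 5.58, 5.07 and 5.70 CPM in GFP 2 mM, 3.87, 4.93 and 4.86 CPM in GFP 11 mM, 3.26, 5.24 and 5.07 CPM in ChREBPβ 2 mM and 3.70, 4.93 and 5.01 CPM in ChREBPβ 11 mM. Replicate a was the lowest library in 3 of the 4 groups, and the ChREBPβ libraries overlapped those of GFP at both concentrations. The estimate for ChREBPβ against GFP was -0.23 at 2 mM (95% interval -0.57 to 0.11, edgeR adjusted p = 0.232) and -0.0015 at 11 mM (95% interval -0.33 to 0.33, edgeR adjusted p = 0.996), and neither passed the test. Ier3 (IEX-1), a regulator of apoptosis and of ERK signaling, was at 2.61, 2.45 and 2.79 CPM in GFP 2 mM, 3.30, 2.95 and 3.405 CPM in GFP 11 mM, 3.54, 3.44 and 2.92 CPM in ChREBPβ 2 mM and 3.77, 4.19 and 3.24 CPM in ChREBPβ 11 mM. The groups at 2 mM did not overlap, and those at 11 mM did. Its estimates were 0.33 at 2 mM (SE 0.15, edgeR adjusted p = 0.0683) and 0.21 at 11 mM (SE 0.13, edgeR adjusted p = 0.204). Without ChREBPβ 2 mM replicate c, its lowest library of that group, the 2 mM value was 0.42 and passed (edgeR adjusted p = 0.0412).

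Srf had a narrow spread, with an SD between 1.31% and 3.87% of the mean. Its level was 76.1, 82.0 and 78.0 CPM in GFP 2 mM, 87.2, 83.4 and 84.6 CPM in GFP 11 mM, 89.3, 91.45 and 86.4 CPM in ChREBPβ 2 mM and 95.4, 97.8 and 95.8 CPM in ChREBPβ 11 mM. Only GFP 11 mM and ChREBPβ 2 mM overlapped, and the order of the means was GFP 2 mM, GFP 11 mM, ChREBPβ 2 mM and ChREBPβ 11 mM. The log2 fold change was 0.18 at 2 mM (SE 0.043, edgeR adjusted p = 0.00166) and 0.18 at 11 mM (SE 0.043, edgeR adjusted p = 0.0016), 1.13-fold at each, so that it was not called. With library totals the estimates were 0.0780 (edgeR adjusted p = 0.118) and 0.0953 (edgeR adjusted p = 0.0608).

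**Figure D3:**
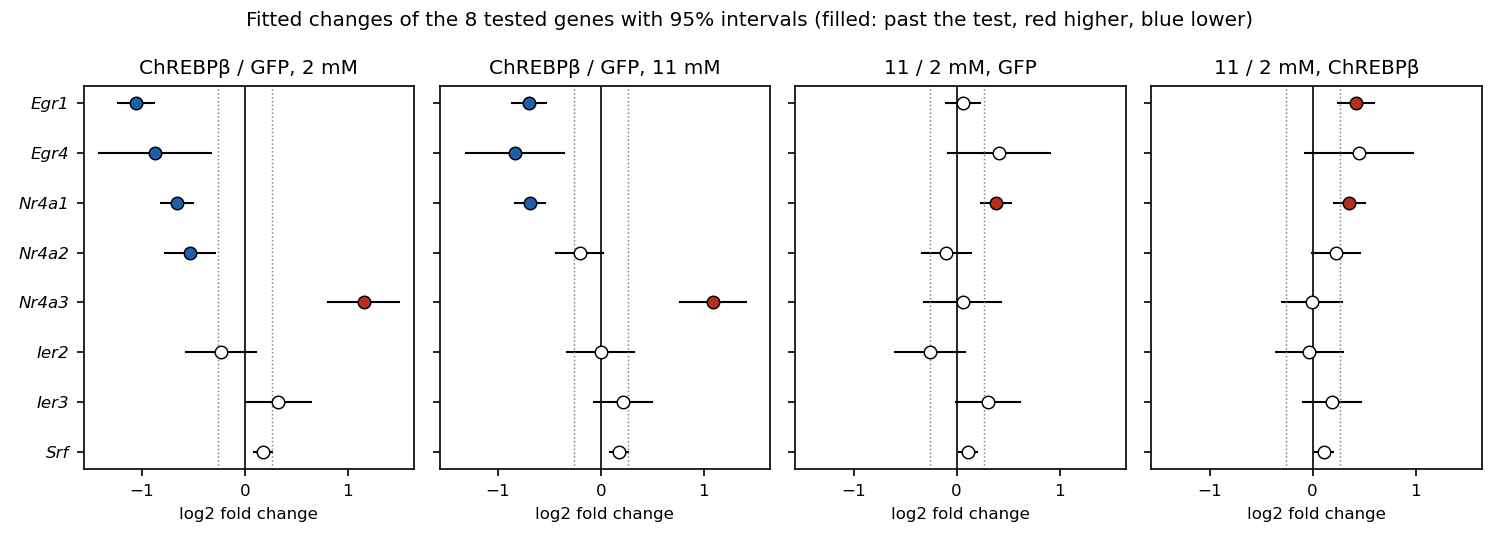
Fitted log2 fold changes (x axis) of the 8 tested genes (y axis) in 4 comparisons, with 95% intervals; filled points are called, red for higher and blue for lower, and dotted lines mark 1.2-fold. Nr4a3 is the only filled point on the right in the ChREBPβ comparisons, and the glucose comparisons hold 3 filled points, all to the right.

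Between 2 and 11 mM glucose Nr4a1 was higher at 11 mM with either virus, and Egr1 with ChREBPβ. These 3 calls were lost when glmTreat tested against 1.2-fold, with edgeR adjusted p = 0.143 for Nr4a1 in GFP cells, 0.612 for Egr1 in ChREBPβ cells and 1 for Nr4a1 in ChREBPβ cells. In GFP cells Nr4a1 was the 1 gene called among the 8 tested, higher by 0.38 on the log2 scale (SE 0.070, edgeR adjusted p = 0.000293), or 1.30-fold. For all tested genes 20.2% were called, 10.2% higher and 10.0% lower, and the medians were 0.09 for the 8 genes and -0.00241 for all. Egr1, a gene known for its acute response to glucose, was at 0.06 (SE 0.079, 95% interval -0.11 to 0.22, edgeR adjusted p = 0.611). Egr4 was at 0.41 (SE 0.24, edgeR adjusted p = 0.201), Ier3 at 0.30 (SE 0.15, edgeR adjusted p = 0.131) and Srf at 0.11 (SE 0.044, edgeR adjusted p = 0.0552). Ier2 (-0.26), Nr4a2 (-0.10) and Nr4a3 (0.06) did not pass the test either.

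In ChREBPβ cells Egr1 and Nr4a1 were called, both higher at 11 mM, where 3.87% of all tested genes were called, 0.988% higher and 2.88% lower. Egr1 rose by 0.42 (SE 0.084, edgeR adjusted p = 0.00355), or 1.34-fold, and Nr4a1 by 0.36 (SE 0.072, edgeR adjusted p = 0.00377), or 1.28-fold. The other 6 ranged from -0.0307 for Ier2 to 0.45 for Egr4 (SE 0.25, edgeR adjusted p = 0.328), and the medians were 0.21 for the 8 genes and 0.00303 for all. The ChREBPβ effects at the 2 glucose concentrations were then compared directly, as the effect at 11 mM minus that at 2 mM, which is also the glucose effect in ChREBPβ cells minus that in GFP cells. By edgeR 0 of the 8 genes were called, with 6.31% of all genes called, 1.56% higher and 4.74% lower, and 1 gene had an unadjusted p under 0.05. That gene was Egr1, with a difference of 0.36 (SE 0.12, 95% interval 0.12 to 0.60, edgeR adjusted p = 0.0617), and DESeq2 called it, and no other of the 8, at 0.37 (DESeq2 adjusted p = 0.042). For Nr4a2, called at 2 mM only, the difference was 0.33 (SE 0.16, edgeR adjusted p = 0.25). For Nr4a1 the difference was -0.025 (95% interval -0.24 to 0.19), and for Srf 0.0022 (95% interval -0.13 to 0.13). The median difference was 0.02 over the 8 genes and -0.00642 over all.

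The remaining 2 of the 6 comparisons cross virus and glucose, and share their libraries with those above. ChREBPβ 11 mM against GFP 2 mM combines both changes, and 6 of the 8 genes were called, 3 higher and 3 lower, with 50.5% of all genes called, 23.7% higher and 26.8% lower, and a median of -0.28 for the 8 genes. Nr4a3 (1.15, SE 0.16, edgeR adjusted p = 3.74e-06), Ier3 (0.52, SE 0.14, edgeR adjusted p = 0.00423) and Srf (0.29, SE 0.043, edgeR adjusted p = 7.2e-06) were higher. Egr1 (-0.64, SE 0.081, edgeR adjusted p = 8.59e-07), Nr4a1 (-0.30, SE 0.071, edgeR adjusted p = 0.00093) and Nr4a2 (-0.31, SE 0.11, edgeR adjusted p = 0.0229) were lower. The Nr4a1 call was lost without ChREBPβ 11 mM replicate b, at -0.24, and the Nr4a2 groups overlapped. Leaving out GFP 2 mM replicate a (-0.24), GFP 2 mM replicate c (-0.29), ChREBPβ 11 mM replicate b (-0.25) or ChREBPβ 11 mM replicate c (-0.26) each ended the Nr4a2 call. Under glmTreat the calls of Nr4a1 (edgeR adjusted p = 0.231), Nr4a2 (edgeR adjusted p = 0.299) and Srf (edgeR adjusted p = 0.218) were lost. With library totals the median of all genes was -0.131 in place of -0.0152, Srf was at 0.17 and no longer called, and Ier2 was called at -0.38 (edgeR adjusted p = 0.0452); 33.4% of called genes were then higher, against 3474 higher and 3933 lower with TMM.

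ChREBPβ 2 mM against GFP 11 mM sets ChREBPβ in low glucose beside glucose alone. Here 5 of the 8 were called, 1 higher and 4 lower, with 27.0% of all genes called, 12.2% higher and 14.8% lower, and a median of -0.20 for the 8 genes and -0.00974 for all. Egr4 (-1.28, SE 0.24, edgeR adjusted p = 0.000262), Egr1 (-1.12, SE 0.083, edgeR adjusted p = 1e-09), Nr4a1 (-1.04, SE 0.071, edgeR adjusted p = 3.06e-10) and Nr4a2 (-0.43, SE 0.11, edgeR adjusted p = 0.00461) were lower, and Nr4a3 was higher (1.09, SE 0.16, edgeR adjusted p = 9.86e-06). Ier2, Ier3 and Srf lay between 0.024 and 0.066 and were not called. With library totals 33.0% of all called genes were higher, against 1787 higher and 2168 lower with TMM.

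Other immediate early genes were called in both directions. Of 40 listed genes 38 were tested, and with ChREBPβ 16 were higher and 10 lower at 2 mM (median 0.05), where 21.0% of all tested genes were higher and 23.2% lower. At 11 mM 14 were higher and 8 lower (median 0.11), where 14.3% of all were higher and 19.1% lower. Atf3, a stress-induced partner of the AP-1 factors, rose from a mean of 4.32 to 29.9 CPM at 2 mM, by 2.79 on the log2 scale (SE 0.078, edgeR adjusted p = 1.15e-16), and by 2.79 at 11 mM. Klf2, a Krüppel-like factor and MEF2 target, rose by 1.78 and 1.23, the kinase Plk2 by 1.51 and 1.32, and the AP-1 subunit Junb by 1.496 and 1.24. Unlike Ier2 and Ier3, the Ier genes of this list were called higher at both concentrations, Ier5l by 1.38 and 1.01 and Ier5 by 0.54 and 0.52. Those that fell included Phlda1 (-1.12 and -0.67) and the small GTPase Gem (-0.53 and -0.49) at both concentrations. Npas4, an activity-dependent neuronal factor at under 1 CPM in each group mean, fell at 2 mM (-1.62, SE 0.42, edgeR adjusted p = 0.0027), as did Cyr61 (-0.86), while Rgs2 (-0.46) fell at 11 mM and Jun at both concentrations (-0.44 and -0.48). In GFP cells at 11 mM glucose 7 of the 38 were higher and 5 lower (median 0.11), where 10.2% of all were higher and 10.0% lower. Among the higher were Myc at 1.21 (SE 0.051, edgeR adjusted p = 1.47e-12), Fos at 1.01 (SE 0.25, edgeR adjusted p = 0.00345), Klf2 at 0.85 and Fosl2 at 0.57. Cyr61 (-0.79), Phlda1 (-0.49), Dusp1 (-0.42), a phosphatase of MAP kinases, and Plk3 (-0.29) were lower. Myc was also called higher with ChREBPβ, by 1.49 at 2 mM and 0.44 at 11 mM. Fos (0.64) and Fosl2 (0.37) were called higher with ChREBPβ at 2 mM only.

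Partners of the set were called in both directions. Of 9 cofactors of SRF and EGR, 7 were tested. The ternary complex factors Elk1, Elk3 and Elk4 were within 0.11 of 0 with ChREBPβ at both concentrations and were not called, and neither was Mkl1 (MRTF-A). Fhl2, a LIM protein that binds SRF, rose by 1.03 at 2 mM (SE 0.079, edgeR adjusted p = 1.07e-09) and 0.44 at 11 mM, and by 0.76 with glucose in GFP cells. Nab2, a corepressor of several EGR factors itself known as an EGR target, fell by 0.50 at 2 mM (SE 0.073, edgeR adjusted p = 7.32e-06), by 0.47 at 11 mM, and by 0.36 with glucose in GFP cells. Nab1 fell by 0.29 at 11 mM. The list thus had 1 higher and 1 lower at 2 mM (median -0.07), 1 and 2 at 11 mM (median 0.04), and 1 and 1 with glucose (median -0.10). Of all tested genes 44.1%, 33.4% and 20.2% were called in the same comparisons. Whether the list differs from these shares was not tested.

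The next list holds 12 CREB and MEF2 regulators, which act on the Nr4a promoters. With ChREBPβ 3 were higher and 1 lower at 2 mM (median 0.03), and 4 higher and 1 lower at 11 mM (median 0.06). In GFP cells 2 were higher with glucose (median -0.06). The shares of all tested genes were 21.0% higher and 23.2% lower at 2 mM, 14.3% and 19.1% at 11 mM, and 10.2% and 10.0% with glucose. Mef2d rose by 0.83 at 2 mM (SE 0.055, edgeR adjusted p = 9.29e-11), by 0.46 at 11 mM and by 0.47 with glucose, and the kinase Sik2, which restrains CRTC coactivators, rose by 0.45 and 0.46 with ChREBPβ. Crtc1 rose by 0.31 and 0.34, Crebbp by 0.29 at 11 mM, and Crem by 0.28 with glucose. Mef2c fell by 0.93 at 2 mM (SE 0.17, edgeR adjusted p = 9.71e-05) and by 0.84 at 11 mM. Creb1 was not called in any of the 3 comparisons, at 0.20, 0.09 and 0.06.

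Of 16 targets of SRF and its MRTF coactivators, mostly parts of the actin cytoskeleton, 14 were tested. With ChREBPβ 6 were higher and 2 lower at 2 mM (median 0.25), where 21.0% of all tested genes were higher and 23.2% lower. At 11 mM 5 were higher and 1 lower (median 0.17), against 14.3% and 19.1% of all. With glucose in GFP cells 1 was higher and 1 lower (median 0.04), against 10.2% and 10.0%. Vinculin (Vcl) rose by 0.59 at 2 mM (SE 0.045, edgeR adjusted p = 9.55e-10) and 0.78 at 11 mM, tropomyosin Tpm1 by 0.57 and 0.62, and Actb by 0.52 and 0.49. Actg1 rose by 0.65 at 2 mM and by 0.52 with glucose. Calponin Cnn2 (1.92 at 2 mM, SE 0.74, edgeR adjusted p = 0.0322) and smooth muscle actin Acta2 (1.57 at 11 mM, SE 0.50, edgeR adjusted p = 0.0135) passed the test with group means of at most 0.35 CPM. Filamin (Flna) fell by 0.26 and 0.36, and Actn1 fell by 0.34 at 2 mM and by 0.28 with glucose.

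**Figure D4:**
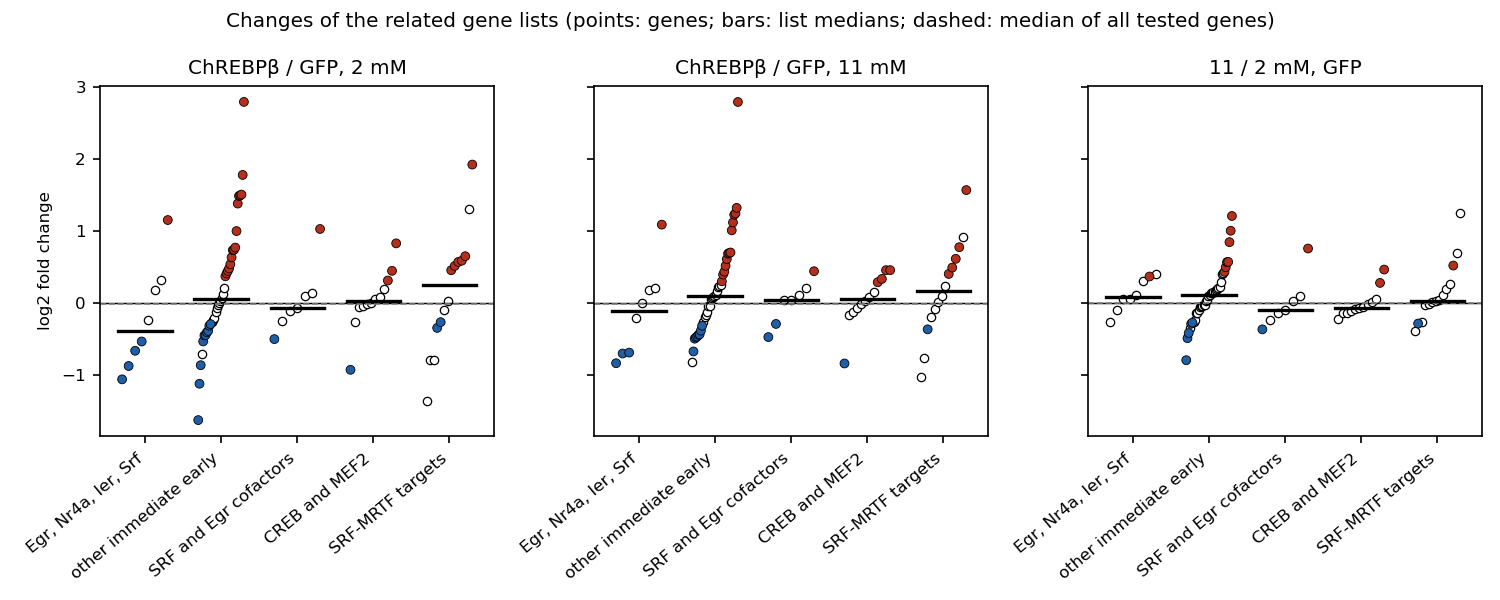
Log2 fold changes (y axis) of the tested genes of 5 lists (x axis) in 3 comparisons; each point is a gene, red called higher, blue called lower and white not called, bars are list medians and the dashed line is the median of all tested genes. At 2 mM the median of the Egr, Nr4a, Ier and Srf list (-0.38) lies below the dashed line (-0.0168) and that of the SRF-MRTF targets (0.25) above it.

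The last of these lists holds 12 genes known as targets of EGR or NR4A factors, Nab2 among them again. With ChREBPβ 4 were higher and 6 lower at 2 mM (median -0.34), and 5 and 5 at 11 mM (median -0.23). With glucose in GFP cells 2 were higher and 5 lower (median -0.23). All tested genes had shares of 21.0% higher and 23.2% lower at 2 mM, 14.3% and 19.1% at 11 mM, and 10.2% and 10.0% with glucose. Cdk5r1, the p35 activator of CDK5 and an Egr1 target in neurons, rose with ChREBPβ, where Egr1 fell, by 2.18 at 2 mM (SE 0.049, edgeR adjusted p = 4.22e-18), by 1.18 at 11 mM, and by 1.11 with glucose in GFP cells. Cdkn1a (p21) rose by 1.24 and 1.23 with ChREBPβ and by 0.48 with glucose, and Pdgfa by 0.66 and 0.59. Ptpn1 rose by 0.42 and 0.31 and Ndrg1 by 0.41 at 11 mM. The lower members included Nkx6-1 (-1.61 and -1.42), Ins1 (-1.44 and -1.29), Ins2 (-1.42 and -1.15) and Pdx1 (-1.06 and -0.78), which are also among the 10 β-cell markers. Of those markers 8 were lower and 1 higher, Slc2a2, at both concentrations, with medians of -1.02 at 2 mM and -0.77 at 11 mM, and with glucose 7 were lower (median -0.45). The shares of all tested genes that were lower were 23.2% at 2 mM, 19.1% at 11 mM and 10.0% with glucose.

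The summed level of the β-cell markers was 23338 to 26263 CPM in GFP 2 mM, 18971 to 20833 in GFP 11 mM, 12615 to 13033 in ChREBPβ 2 mM and 11926 to 12496 in ChREBPβ 11 mM. Ins1 and Chga made up most of it, with means of 11677 and 9349 CPM in GFP 2 mM. The sum was lower with ChREBPβ, as Egr1, Egr4 and Nr4a1 were. With glucose it was lower under each virus, while the glucose estimates of Egr1, Egr4 and Nr4a1 were all positive, though not all called. Of 12 markers of other cell types 10 were in the table and 2 (Gcg and Ghrl) were tested. Their summed level, nearly all Gcg, was 1590 to 1668 CPM in GFP 2 mM and 1606 to 1721 in GFP 11 mM, and 431 to 442 in ChREBPβ 2 mM and 452 to 503 in ChREBPβ 11 mM. Gcg fell by 1.91 at 2 mM and fell by 1.79 at 11 mM. Any part of these shifts in the results for the Egr, Nr4a and Ier genes was not tested.

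Across the 12 libraries the log2 levels of Egr1 followed those of Nr4a1 (Pearson r = 0.92), Nr4a2 (0.86) and Egr4 (0.81) and ran opposite to those of Nr4a3 (-0.90), while Ier2 stood apart (0.23). Srf ran with Ier3 (0.83) and Nr4a3 (0.81). These are descriptions over 12 libraries that fall into 4 groups, and they repeat the group differences given above. Among 10467 other tested genes of at least 5 CPM, the 5 whose levels were most like those of Egr1 were Cdc42se2 (Pearson r = 0.99), Arhgap18 (0.99), Cntn1 (0.98), Mtnr1a (0.98) and Efnb2 (0.98). For Nr4a1 they were Desi1 (0.98), Mest (0.97), Trpc4 (0.97), Tmed10 (0.97) and Sec23b (0.97). For Ier2 the likeness was weaker, with Ccdc159 at 0.91 and Lrrc57, Rrp36, Prickle2 and Praf2 between 0.76 and 0.78. Mtnr1a, the melatonin receptor, had group means of 21.7 and 23.0 CPM with GFP at 2 and 11 mM and 9.17 and 11.4 CPM with ChREBPβ. This is the same order of groups as Egr1, which follows from picking the gene by its correlation with Egr1 in these libraries.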

How the data were processed

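RNA from INS-1 832/13 cells was amplified by the authors before paired-end sequencing, and they deposited raw read counts per gene for 12 libraries, 3 in each of 4 groups, without normalization. The submitters' processing notes name edgeR and the Rnor_6.0 build; the aligner, the counting program and its use of strand are not given in the sources used here, so that reads of a gene and of another on the opposite strand cannot be told apart. The same table holds group means, which were not used. An entry with no gene name (0.0043% to 0.006% of a library) was left out. The 26 names turned into dates were kept under those dates among the named genes.

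Counts were analysed in R 4.3.3 with edgeR 4.0.16: filterByExpr by group, TMM factors, and a single quasi-likelihood fit of all 12 libraries with the group as factor. The 6 comparisons between groups and the interaction were tested, with Benjamini-Hochberg adjustment over the 14669 genes tested; calls needed an adjusted p under 0.05 together with a 1.2-fold difference. The standard error is the size of the log2 fold change divided by the square root of F. Named genes were the 10 members, and Mlxipl, Txnip and Pklr. From each list up to 4 called genes per direction were named, by the largest change with ChREBPβ against GFP or with glucose in GFP cells. The 5 genes most correlated (log2 CPM, prior count 2) with the most abundant Egr, Nr4a and Ier gene among the members were also named. A few more list members (the Elk factors, Mkl1, Creb1, Ier5 and Ier5l) were named after their values were seen. The members and lists were chosen with earlier results of these data known. Motifs were searched in RefSeq promoter windows (GRCr8). On simulated data the edgeR test of ChREBPβ against GFP at 2 mM recovered 171 of 197 changed genes (86.8%). It made 8 false calls among 14503 genes tested, and DESeq2 recovered 171 with 6. The simulation changed few genes, with rises and falls in nearly equal number, and none of them by close to 1.2-fold. It cannot show how calls depend on TMM scaling or how changes near the 1.2-fold minimum fare. Alternatives were DESeq2 1.42.0, RLE factors, library totals, no filter on low counts, a minimum of 10 counts per library, a replicate block, no minimum fold change, edgeR's glmTreat against 1.2-fold, only the groups compared, thinning to the smallest library, and leaving out each library.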

Additional observations from a re-analysis of the deposited data

How the results depend on the processing

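Of 1224 values of the 8 tested genes under the alternatives, 1157 kept their direction and their side of the threshold, 14 were no longer called, 7 became called and 46 changed sign with neither value past the test; 0 called values changed sign. Egr1, Egr4, Nr4a1 and Nr4a3 were called in the same direction at 2 and 11 mM under all 22 alternatives. When glmTreat tested against 1.2-fold, 0 genes were called in the glucose comparison in GFP cells (1 without it), 0 in that in ChREBPβ cells (2) and 3 in ChREBPβ 11 mM against GFP 2 mM (6), and DESeq2 called 1 in the interaction (0 with edgeR). Under glmTreat the Nr4a2 call of ChREBPβ 2 mM against GFP 11 mM was also lost, and after thinning that of ChREBPβ 11 mM against GFP 2 mM (-0.28, edgeR adjusted p = 0.061). With no minimum fold change Srf was called at 2 and 11 mM. Over all genes glmTreat called 2963 with ChREBPβ at 11 mM (4904 without it), 1113 with glucose in GFP cells (2963), 85 with glucose in ChREBPβ cells (567), 2360 in ChREBPβ 2 mM against GFP 11 mM (3955) and 194 in the interaction (925), while dropping the minimum fold gave 5030 with glucose in GFP cells, 1100 with glucose in ChREBPβ cells and 6109 in ChREBPβ 2 mM against GFP 11 mM.

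Among the lists, glmTreat took the other immediate early genes called with glucose in GFP cells from 12 to 7, the cofactors from 2 to 1, the SRF-MRTF targets from 2 to 1, and the CREB and MEF2 regulators from 2 to 1 there and from 5 to 3 with ChREBPβ at 11 mM. Library totals gave the same 1 and 3 for the CREB and MEF2 regulators. With no minimum fold change 4 cofactors and 4 SRF-MRTF targets passed with glucose. Without GFP 2 mM replicate c the glucose count was 1 for the CREB and MEF2 regulators and for the SRF-MRTF targets, and without GFP 11 mM replicate c it was 1 for the regulators; without GFP 2 mM replicate b the other cell type markers called at 2 mM were 2 in place of 1.

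The replicate letters were not taken to pair samples. Correlations of deviations between libraries with the same letter ranged from -0.11 to 0.064 over 18 pairs, and with other letters from -0.087 to 0.16 over 36. For 6 of 12 libraries the mean correlation with libraries of the other groups was highest for their own letter. The replicate block left the counts of called genes as they were: 5 and 4 with ChREBPβ at 2 and 11 mM, 1 and 2 with glucose in GFP and ChREBPβ cells, 6 and 5 in the crossed comparisons and 0 in the interaction. Depth limits Egr2, Egr3 and Egr4 most, since a library held as few as 16 counts of Egr4.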
